A study of Rattus norvegicus with 4 samples.

Results

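Transcripts of 36 genes of cholesterol and fatty acid synthesis and their regulation were examined in rat tendon stem/progenitor cells (TSPCs), cultured fibroblast-like cells derived from tendon. The set held 33 genes of the pathways that sterol regulatory element-binding proteins (SREBPs) control and 3 genes, Abca1, Abcg1 and Mylip, that are known as targets of the liver X receptors (LXRs). Members were the rows of the deposited table whose gene name equalled a listed symbol. All 36 symbols were found among 32623 rows, 0 of them had more than 1 row, and all 36 were among the 14023 genes tested. The control group was 2 libraries of TSPCs given the solvent DMSO, and the treated group was 2 libraries of TSPCs given U0126, an inhibitor of the kinases MEK1 and MEK2, which activate ERK. The sources used here give no dose, exposure time, strain or animal age, and both groups share the tissue and cell type label. Each library carries a replicate number but no animal or culture of its own. The p-values therefore reflect the spread among these libraries, which may be technical, and n is 2 libraries per group throughout.

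SREBPs are transcription factors made as membrane proteins of the endoplasmic reticulum, where Scap escorts them and Insig proteins hold them back when sterols are plentiful. When membrane sterols run low, Scap carries SREBP to the Golgi, proteases release its DNA-binding part, and genes for cholesterol and fatty acid synthesis are switched on. LXRs act on the other side of this balance, since they sense oxidised sterols and switch on genes that export cholesterol and limit its uptake.

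Total counts lay between 36888913 and 42785190 per library, and between 16100 and 16329 genes had a count. In a principal component analysis, 75% of the variance lay between the groups on the first component, and the second (15.8%) set U0126 replicate 1 and replicate 2 apart. The share of counts from the mitochondrial genome was 2.98% to 3.48% in the controls and 4.82% to 5.64% with U0126. Of 11 ERK output genes, 9 fell with U0126 and 0 rose, where 11.5% of all genes tested fell and 8.41% rose. This list was chosen with earlier results of these data known. Of 11 TSPC markers 10 were tested. Thy1, Col1a1, Tnc and Bgn had 32758 or more counts in every library, while Mkx had 48 to 125, Eng 78 to 123 and the mature tendon marker Tnmd 0 to 5. With U0126, Fmod, Bgn, Nt5e and Scx rose and Tnc and Thy1 fell, so the label markers also moved, and the part of this in the members' differences was not tested. The endothelial markers Cdh5, Tie1 and Emcn, the leukocyte marker Ptprc and the epithelial markers Epcam and Cdh1 were at 0 counts in all 4 libraries, and the endothelial markers Kdr and Vwf had 0 to 9.

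The set did not move as a block: 8 members fell with U0126, 4 rose and 24 did not pass the test. Levels are given as CPM, counts scaled to the size of the library with TMM factors. A gene passed where the Benjamini-Hochberg adjusted p of edgeR's quasi-likelihood test, taken over all genes tested, was under 0.05. The members that fell were Fads1, Insig1, Hmgcs1, Fads2, Scd, Fdps, Msmo1 and Stard4, and those that rose were Abca1, Acss2, Abcg1 and Mylip. They made up 33.3% of the members, against 19.9% of all genes tested that passed in either direction. For falls the share was 22.2% of members against 11.5% of all genes, and for rises 11.1% against 8.41%. The median log2 fold change over the 36 members was -0.14, against 0.02 over all genes tested, and 25 members had a value below 0. Both U0126 libraries lay below both controls in 18 members (50% against 31.0% of all genes) and above both in 9 (25% against 31.8%). These are bulk libraries, so fewer cells of a type and less RNA per cell cannot be told apart.

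Most calls were lost when either control was left out. With a library left out, the spread within groups is taken from the other group alone, so these fits also differ in whose spread they use. Without control replicate 1, 3 members fell (Hmgcs1, Insig1 and Fads1) and 0 rose by edgeR, where 4.2% of all genes tested fell and 2.12% rose. Without control replicate 2, Fads1 alone fell and 0 rose, against 4.19% and 2.05% of all genes. In both fits the 12 called members kept their sign. Without U0126 replicate 1, 9 members fell and 6 rose (13.2% and 9.64% of all genes), and without U0126 replicate 2, 14 fell and 4 rose (17.3% and 14.8%). All 12 called members passed in both of these fits.

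With all 4 libraries, other ways of processing moved the counts less. With RLE factors 8 members fell and 4 rose, against 11.6% and 8.24% of all genes. Library totals alone gave 10 and 4 (13.2% and 6.78%), no low-count filter 8 and 4 (8.37% and 5.81%) and a stricter filter 8 and 4 (12.7% and 9.58%). With replicate number as a block 7 members fell and 4 rose (10.1% and 6.83%), and under DESeq2 8 fell and 3 rose (10.4% and 7.19%).

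**Figure D1:**
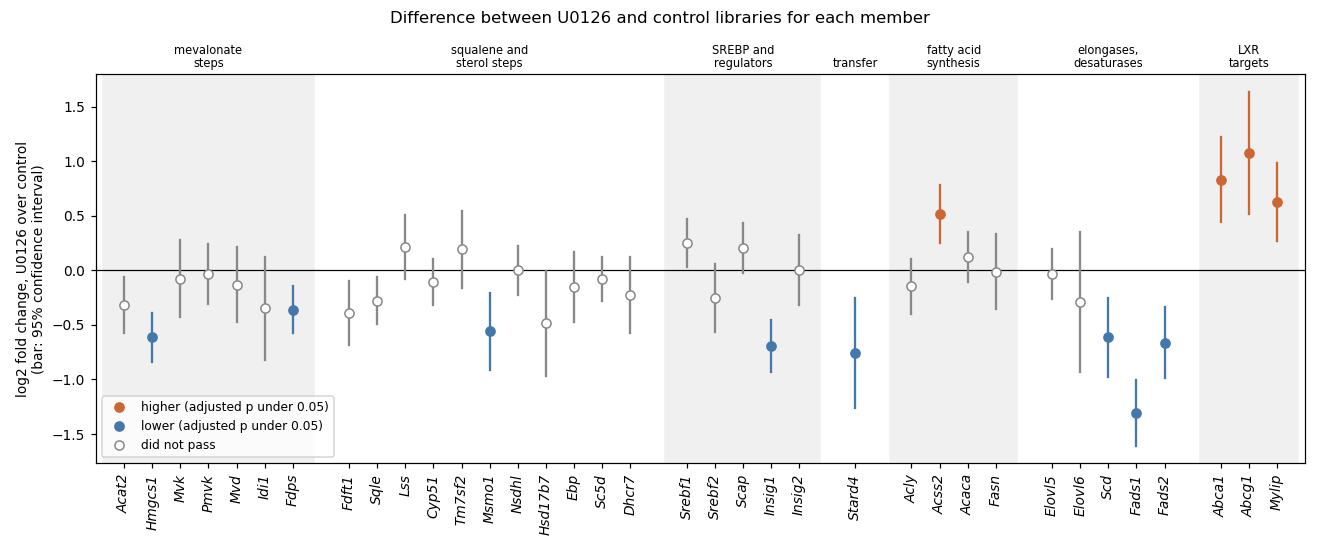
Log2 fold change of U0126 over control for each of the 36 members (vertical axis), ordered by role along the horizontal axis, with the 95% confidence interval of the edgeR fit as a bar. Filled points passed at an adjusted p under 0.05: 8 lie below 0, with Fads1 lowest at -1.31, and 4 lie above 0, with Abcg1 highest at 1.08.

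Promoter windows were read to show the sequence upstream of the members whose transcripts moved. RefSeq's table for build GRCr8 held an entry for 28 of the 36 members, and the 250 bases before each annotated start were searched on both strands. The motifs were a sterol regulatory element (TCACNCCAC), the CCAAT box bound by NF-Y, a partner of SREBPs, the E-box CACGTG, the GC box GGGCGG bound by Sp1, and an LXR-type repeat, made of 2 copies of AGGTCA with any 4 bases between them. A CCAAT box was present for 21 of the 28 members (75%), against 34.0% of all 33469 windows in the table. A GC box was present for 23 members (82.1%), against 30.5% of all windows, and an E-box for 5 (17.9%), against 5.59%. Every member was a tested gene, while the windows of the whole table were not limited to tested genes. These shares therefore compare unlike sets. The CCAAT box was found for 5 of 7 members that fell, 2 of 3 that rose and 14 of 18 that did not pass. The sterol regulatory element as spelled was in 0 member windows and 0.974% of all windows, and the LXR repeat in 0 member windows and 0.00299% of all. With shares this low, 0 among 28 windows is the likely count for a set that holds them as rarely as all windows do. The search shows only that these exact strings are absent from the 28 windows. It cannot show whether the members hold these 2 elements in another spelling or outside the windows. A match to any of the motifs is a description of the letters, not a bound site. The windows of the 6 members with the smallest adjusted p that had an entry and a match are given here, the first 3 and Fads2 from genes that fell and Abca1 and Acss2 from genes that rose. They run 5′ to 3′ and end at the base before the RefSeq start. Capitals mark matches to the searched motifs on either strand, so that ATTGG is a CCAAT box and CCGCCC a GC box on the opposite strand.
Fads1 (GRCr8 chr1:216252442-216252691, + strand): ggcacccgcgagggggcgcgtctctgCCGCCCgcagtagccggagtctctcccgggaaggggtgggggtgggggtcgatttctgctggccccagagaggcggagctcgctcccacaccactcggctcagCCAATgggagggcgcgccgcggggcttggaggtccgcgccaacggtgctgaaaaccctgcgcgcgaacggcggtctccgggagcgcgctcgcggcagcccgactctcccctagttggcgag
Insig1 (GRCr8 chr4:8057770-8058019, - strand): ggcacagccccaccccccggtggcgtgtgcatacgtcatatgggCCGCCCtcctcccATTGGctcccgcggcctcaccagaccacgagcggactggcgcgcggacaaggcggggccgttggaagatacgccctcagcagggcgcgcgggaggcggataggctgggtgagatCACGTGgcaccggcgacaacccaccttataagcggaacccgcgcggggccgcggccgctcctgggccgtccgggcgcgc
Hmgcs1 (GRCr8 chr2:53382054-53382303, + strand): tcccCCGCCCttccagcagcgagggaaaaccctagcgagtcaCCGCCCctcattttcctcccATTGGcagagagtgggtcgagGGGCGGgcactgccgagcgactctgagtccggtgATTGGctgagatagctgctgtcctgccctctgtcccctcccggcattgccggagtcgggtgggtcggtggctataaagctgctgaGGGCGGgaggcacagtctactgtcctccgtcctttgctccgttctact
Abca1 (GRCr8 chr5:72596474-72596723, - strand): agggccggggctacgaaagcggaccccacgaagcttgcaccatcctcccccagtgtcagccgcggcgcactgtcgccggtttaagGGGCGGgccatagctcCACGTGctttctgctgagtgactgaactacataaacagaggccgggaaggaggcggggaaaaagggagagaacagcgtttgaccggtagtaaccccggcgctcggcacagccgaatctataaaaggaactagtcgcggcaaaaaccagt
Fads2 (GRCr8 chr1:216172034-216172283, - strand): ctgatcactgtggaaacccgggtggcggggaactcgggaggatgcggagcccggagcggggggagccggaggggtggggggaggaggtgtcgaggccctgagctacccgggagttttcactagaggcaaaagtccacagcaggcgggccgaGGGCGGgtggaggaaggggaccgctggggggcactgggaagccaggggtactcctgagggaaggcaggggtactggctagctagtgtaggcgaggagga
Acss2 (GRCr8 chr3:164464453-164464702, + strand): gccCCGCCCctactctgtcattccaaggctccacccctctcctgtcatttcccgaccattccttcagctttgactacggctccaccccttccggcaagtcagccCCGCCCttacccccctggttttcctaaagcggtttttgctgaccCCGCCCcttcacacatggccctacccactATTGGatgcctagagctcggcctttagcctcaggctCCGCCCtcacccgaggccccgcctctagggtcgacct
The Hmgcs1 window held 2 CCAAT boxes and 4 GC boxes. The Insig1 window held 1 CCAAT box, 1 GC box and an E-box whose first base is 79 bases before the start. The Abca1 window held an E-box and a GC box, and the Fads2 window a GC box, with 0 CCAAT boxes in each. The Fads1 window held 1 CCAAT box and 1 GC box, and the Acss2 window 1 CCAAT box and 4 GC boxes.

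The mevalonate steps turn acetyl-CoA into the isoprenoid farnesyl diphosphate. Of 7 members, 2 fell (28.6%, against 11.5% of all genes tested), 0 rose and 5 did not pass. All 7 had a log2 fold change below 0, with a median of -0.32. Hmgcs1, the cytosolic HMG-CoA synthase (chromosome 2, 52431601 to 52445055, rn6), was at 83.7 and 91.8 CPM in the controls and at 58.7 and 56.0 CPM with U0126. The groups did not overlap, and the gap between them was wider than the difference within either. It fell 1.53-fold (log2 fold change -0.61 ± 0.09 SE, edgeR adjusted p = 0.00521), from 87.7 ± 5.75 to 57.4 ± 1.90 CPM (SD). The call held without control replicate 1 (edgeR adjusted p = 0.0452) and was lost without control replicate 2 (0.0913).

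Fdps, farnesyl diphosphate synthase (chromosome 2, 188392858 to 188413219, rn6), was the most abundant member per transcript length, at 315 and 328 TPM in the controls and 221 and 248 TPM with U0126. In CPM its controls were nearly the same (240.0 and 239.4) and both U0126 libraries were lower (178 and 196). It fell 1.28-fold (log2 fold change -0.36 ± 0.09 SE, edgeR adjusted p = 0.0341), and the call was lost without either control (0.235 and 0.244). Acat2, which joins acetyl-CoA units at the entry to the pathway, was also lower in both U0126 libraries, at 23.1 and 25.8 CPM against 30.5 and 30.6, but did not pass (edgeR adjusted p = 0.0880), except without U0126 replicate 2 (0.0179).

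Between these steps stand the kinases and the decarboxylase of the pathway. Mvk, mevalonate kinase, was at 11.2 and 9.88 CPM in the controls and 9.57 and 10.5 CPM with U0126, and Pmvk, phosphomevalonate kinase, at 18.8 and 18.6 against 18.5 and 17.9 CPM. For Pmvk the 95% confidence interval of the log2 fold change ran from -0.31 to 0.24, so a fall as large as that of Hmgcs1 lies outside it. Mvd, the mevalonate diphosphate decarboxylase, overlapped between groups (22.6 and 28.3 against 21.7 and 24.8 CPM). Idi1, the isomerase of isopentenyl diphosphate, was split by its U0126 libraries, 17.6 and 11.8 CPM against 17.5 and 19.8 CPM in the controls. Leaving out U0126 replicate 1 made it pass, as lower, with an edgeR adjusted p of 0.00872. Its annotated span overlaps Wdr37 on the other strand by 100 bases, and no source used here says whether counting used strand.

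The squalene and sterol steps build and trim the ring system of cholesterol. Here 1 of 11 members fell, 0 rose and 10 did not pass, with a median log2 fold change of -0.15. The share that fell, 9.09%, was near the 11.5% of all genes tested. Msmo1, the methylsterol monooxygenase that removes methyl groups from the ring (chromosome 16, 26859397 to 26875973, rn6), was at 155 and 183 CPM in the controls and at 99.2 and 131 CPM with U0126. The groups did not overlap, although each spread widely. It fell 1.47-fold (log2 fold change -0.56 ± 0.15 SE, edgeR adjusted p = 0.0407). It did not pass once control replicate 1 or control replicate 2 was left out, with edgeR adjusted p of 0.0994 and 0.287, and its log2 fold change was -0.37 without U0126 replicate 1 and -0.78 without U0126 replicate 2.

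Fdft1 and Sqle open this branch, as squalene synthase and squalene epoxidase. Fdft1 was at 61.2 and 66.0 CPM in the controls and 43.4 and 53.6 CPM with U0126 (log2 fold change -0.39 ± 0.12 SE, edgeR adjusted p = 0.0678). Sqle was at 72.0 and 75.1 against 58.7 and 62.8 CPM (-0.28 ± 0.09 SE, edgeR adjusted p = 0.0778). Neither pair overlapped, and both genes narrowly missed the threshold. Both passed, as lower, with library totals alone as scaling (edgeR adjusted p = 0.0453 for each) and without U0126 replicate 2 (0.00238 and 0.0207). Fdft1 also passed under DESeq2 (adjusted p = 0.0443).

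Lss, the cyclase that makes lanosterol, was among 3 of the 11 members with a value above 0. It was at 115.0 and 114.5 CPM in the controls and at 117 and 149 CPM with U0126, so the difference lay in 1 library. It passed, as higher, without U0126 replicate 1 (edgeR adjusted p = 0.0102). In TPM its 4 libraries overlapped, at 59.0 and 54.4 in the controls and 51.9 and 75.3 with U0126. Cyp51, the lanosterol demethylase and the next enzyme after Lss, was abundant and nearly level, at 200 and 214 CPM against 187 and 198 CPM. Its log2 fold change of -0.11 had a 95% confidence interval from -0.32 to 0.11.

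The later sterol enzymes did not pass. Nsdhl, a sterol dehydrogenase that works with Msmo1, was at 40.5 and 43.0 CPM in the controls and 42.6 and 40.9 CPM with U0126, with an interval from -0.23 to 0.23 on the log2 scale. That interval leaves out a difference as large as the one fitted for Msmo1. Hsd17b7, the sterol ketoreductase of the same step, was at 11.2 and 12.2 against 6.78 and 9.97 CPM (edgeR adjusted p = 0.145). Sc5d, a sterol desaturase, was at 87.3 and 86.1 against 82.5 and 81.5 CPM, and Dhcr7, the last reductase to cholesterol, at 20.3 and 21.9 against 15.9 and 20.2 CPM. With U0126 replicate 2 left out, Hsd17b7 and Dhcr7 passed as lower (edgeR adjusted p = 0.00453 and 0.0342). Ebp, a sterol isomerase, and Tm7sf2, a sterol reductase, had log2 fold changes of -0.15 and 0.19, and the span of Tm7sf2 overlaps Vps51 on the same strand by 1066 bases, so its counts are uncertain. Summed over the 18 mevalonate and sterol members, deposited TPM values were 970 and 1058 in the controls and 745 and 852 with U0126. The most abundant of the 18, Fdps and Msmo1, both fell and weigh heavily in this sum. Their mean TPM went from 321 to 234 and from 165 to 107, while 15 of the 18 did not pass.

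**Figure D2:**
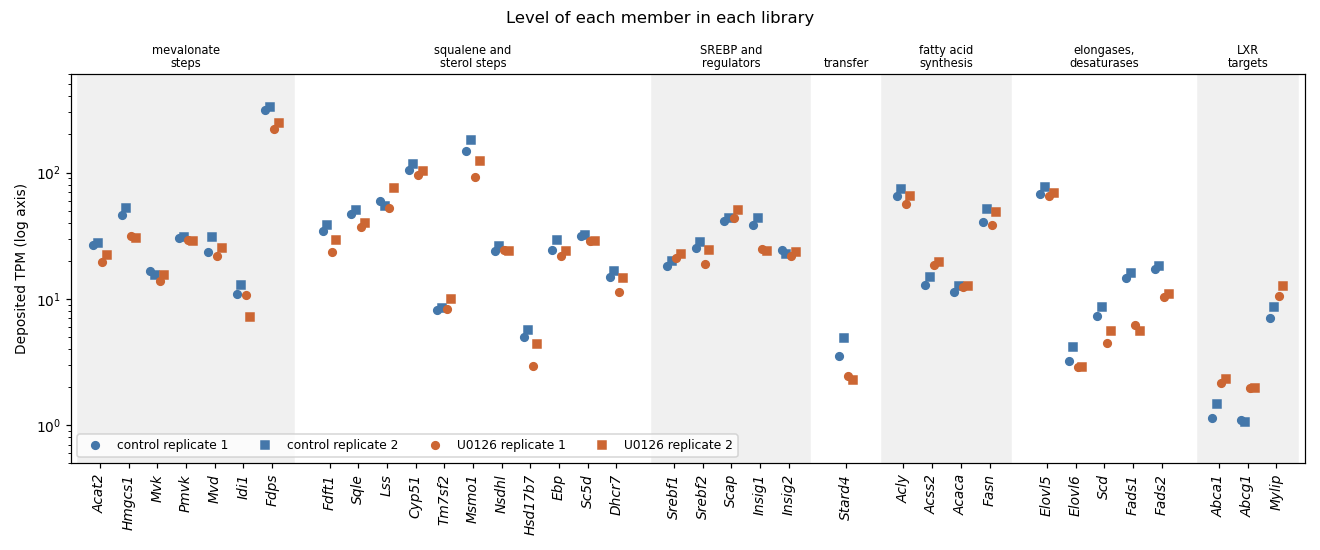
Deposited TPM (log axis) of each member in each library, ordered by role, with controls in blue, U0126 in orange, circles for replicate 1 and squares for replicate 2. Fdps is the highest member, with Msmo1 and Cyp51 next, while Abca1 and Abcg1 lie between 1.06 and 2.32 TPM.

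Among SREBP and its regulators, Insig1 fell and the other 4 members did not pass. This was 1 of 5 (20%), where 11.5% of all genes tested fell. Insig1, the Scap-binding protein that is itself a well-known SREBP target (chromosome 4, 342302 to 350515, rn6), was at 52.5 and 57.9 CPM in the controls and 34.8 and 33.5 CPM with U0126. The U0126 libraries lay close together and well below both controls. It fell 1.62-fold (log2 fold change -0.69 ± 0.10 SE, edgeR adjusted p = 0.00393), a call that held without control replicate 1 (0.0386) and was lost without control replicate 2 (0.0744). Insig2, its paralog, was at 13.7 and 12.2 CPM against 12.6 and 13.4 CPM, with overlapping groups and a 95% confidence interval from -0.32 to 0.33 on the log2 scale.

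The 2 SREBP genes differed in sign, and neither passed. Srebf2, which encodes the form that mainly drives cholesterol genes, was at 71.9 and 76.8 CPM in the controls and 54.6 and 70.0 CPM with U0126 (log2 fold change -0.25 ± 0.13 SE, edgeR adjusted p = 0.224). With U0126 replicate 2 left out it passed as lower (edgeR adjusted p = 0.00575). Srebf1, whose products mainly drive fatty acid genes, was at 45.1 and 47.6 against 53.8 and 56.7 CPM (0.25 ± 0.09 SE, edgeR adjusted p = 0.107). The groups did not overlap in either gene, although a span of 588 bases of Srebf1 is shared with Rai1 on the other strand. The table counts Srebf1 as 1 gene, so its 2 known isoforms cannot be told apart. Scap was at 98.3 and 99.4 against 107 and 122 CPM (edgeR adjusted p = 0.191) and passed, as higher, without U0126 replicate 1 (0.0300).

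Stard4, a soluble protein that carries cholesterol between membranes, was low and fell. It was at 5.35 and 7.19 CPM in the controls and 3.88 and 3.56 CPM with U0126, a 1.69-fold fall that lay just inside the threshold (log2 fold change -0.75 ± 0.21 SE, edgeR adjusted p = 0.0488). With control replicate 1 or control replicate 2 left out it missed the threshold (edgeR adjusted p = 0.101 and 0.394), as it did with replicate number as a block (0.0738) and under DESeq2 (adjusted p = 0.0812).

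Of 4 enzymes that lead to saturated fatty acids, Acss2 rose and the other 3 did not pass. This was 1 of 4 (25%), where 8.41% of all genes tested rose. Acly and Acss2 supply cytosolic acetyl-CoA, from citrate and from acetate, Acaca makes malonyl-CoA and Fasn assembles palmitate. Acss2 (chromosome 3, 151032952 to 151075856, rn6) was at 20.9 and 23.4 CPM in the controls and 31.1 and 32.3 CPM with U0126. It rose 1.43-fold (log2 fold change 0.52 ± 0.11 SE, edgeR adjusted p = 0.0195), with no overlap between groups, and the call was lost without control replicate 1 or 2 (0.228 and 0.115). Acly was at 156 and 174 against 139 and 160 CPM, and Acaca at 39.9 and 43.4 against 44.9 and 45.9 CPM.

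Fasn showed more spread between replicates than between groups. Its controls were at 209 and 258 CPM and its U0126 libraries at 205 and 258 CPM. In both groups replicate 2 was the higher library, and the group means were 233 ± 34.1 and 231 ± 37.1 CPM (SD). The 95% confidence interval of its log2 fold change ran from -0.36 to 0.33, with an edgeR adjusted p of 0.963.

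The 3 desaturases in the set, which put double bonds into fatty acids, fell, while its elongases did not pass. Of their relatives outside the set, Scd2 rose and Fads3 did not pass, with values given below. The falls made up 60% of the 5 elongases and desaturases in the set, where 11.5% of all genes tested fell. Fads1, the delta-5 desaturase of polyunsaturated fatty acid synthesis (chromosome 1, 226234074 to 226249138, rn6), had the largest change of the 36 members. It was at 28.1 and 29.8 CPM in the controls and 12.5 and 10.9 CPM with U0126. The U0126 libraries were below every control value by more than the spread within either group. It fell 2.47-fold (log2 fold change -1.31 ± 0.13 SE, edgeR adjusted p = 8.07e-04). Fads1 was the one called member that passed in each of the 10 alternative fits, with adjusted p between 5.37e-12 and 0.0162 by edgeR or DESeq2.

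Fads2, the delta-6 desaturase, lies in the same stretch of the genome (chromosome 1, 226114413 to 226152524, rn6), on the opposite strand. It was at 13.2 and 13.4 CPM in the controls and 8.20 and 8.62 CPM with U0126, tight in both groups. It fell 1.58-fold (log2 fold change -0.66 ± 0.14 SE, edgeR adjusted p = 0.0157), and lost its call without control replicate 1 or 2 (0.136 and 0.160). Fads3, the third gene of this cluster and not a member, was at 195 and 177 CPM in the controls and 104 and 164 CPM with U0126 (log2 fold change -0.47 ± 0.20 SE, edgeR adjusted p = 0.145).

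Scd, the delta-9 desaturase that makes oleate and palmitoleate (chromosome 1, 264160129 to 264172729, rn6), was at 18.6 and 21.3 CPM in the controls and 11.7 and 14.4 CPM with U0126. The groups did not overlap, and it fell 1.53-fold (log2 fold change -0.61 ± 0.15 SE, edgeR adjusted p = 0.0326), a call lost without control replicate 1 or 2 (0.123 and 0.276). Its paralog Scd2, named after its values were seen, went the other way and was far more abundant, at 103 and 118 TPM in the controls and 132 and 152 TPM with U0126, where Scd was at 7.33 and 8.68 against 4.45 and 5.58 TPM. Scd2 rose 1.34-fold in CPM (log2 fold change 0.42 ± 0.11 SE, edgeR adjusted p = 0.0327), a call lost with library totals alone (0.0503) and without either control (0.273 and 0.138). No source used here says how reads shared by these paralogs were counted, so the split between them is uncertain. Elovl5, an elongase of polyunsaturated fatty acids, was at 42.2 and 45.9 against 42.3 and 44.0 CPM. Elovl6, which lengthens palmitate, was low, at 2.02 and 2.53 against 1.87 and 1.85 CPM (edgeR adjusted p = 0.502).

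All 3 members listed as LXR targets rose, where 8.41% of all genes tested rose. These 3 do not stand for every gene that LXRs control, and which members bore this label was set when the list was drawn. Members listed under other roles, among them Srebf1 and Scd, were not counted here. Of these, Srebf1 did not pass and Scd fell. Abca1, the transporter that loads cholesterol onto apolipoproteins (chromosome 5, 69857771 to 69983015, rn6), was at 6.66 and 8.36 CPM in the controls and 12.9 and 13.8 CPM with U0126. Abcg1, the transporter that passes cholesterol to lipoprotein particles (chromosome 20, 9743269 to 9840489, rn6), was at 1.72 and 1.59 against 3.51 and 3.45 CPM. Mylip, a ubiquitin ligase that marks lipoprotein receptors for breakdown (chromosome 17, 19682040 to 19703681, rn6), was at 12.3 and 14.6 against 19.0 and 22.6 CPM. In each of the 3 genes both U0126 libraries lay above both controls.

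The rise was 1.78-fold for Abca1 (log2 fold change 0.83 ± 0.16 SE, edgeR adjusted p = 0.0133). It was 2.11-fold for Abcg1 (1.08 ± 0.24 SE, edgeR adjusted p = 0.0206) and 1.54-fold for Mylip (0.63 ± 0.15 SE, edgeR adjusted p = 0.0287). Each call was lost without control replicate 1 (edgeR adjusted p = 0.145, 0.138 and 0.243 in that order) and without control replicate 2 (0.0547, 0.189 and 0.109). Abcg1 also missed under DESeq2 (adjusted p = 0.0516). The LXR genes themselves did not pass, with Nr1h2 at 67.2 ± 6.44 and 74.3 ± 7.73 CPM and Nr1h3 at 3.97 ± 0.06 and 3.97 ± 0.51 CPM (SD), both named after their values were seen. Abca1 was among the lowest members per transcript length, at 1.14 and 1.48 TPM in the controls and 2.15 and 2.32 TPM with U0126.

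**Figure D3:**
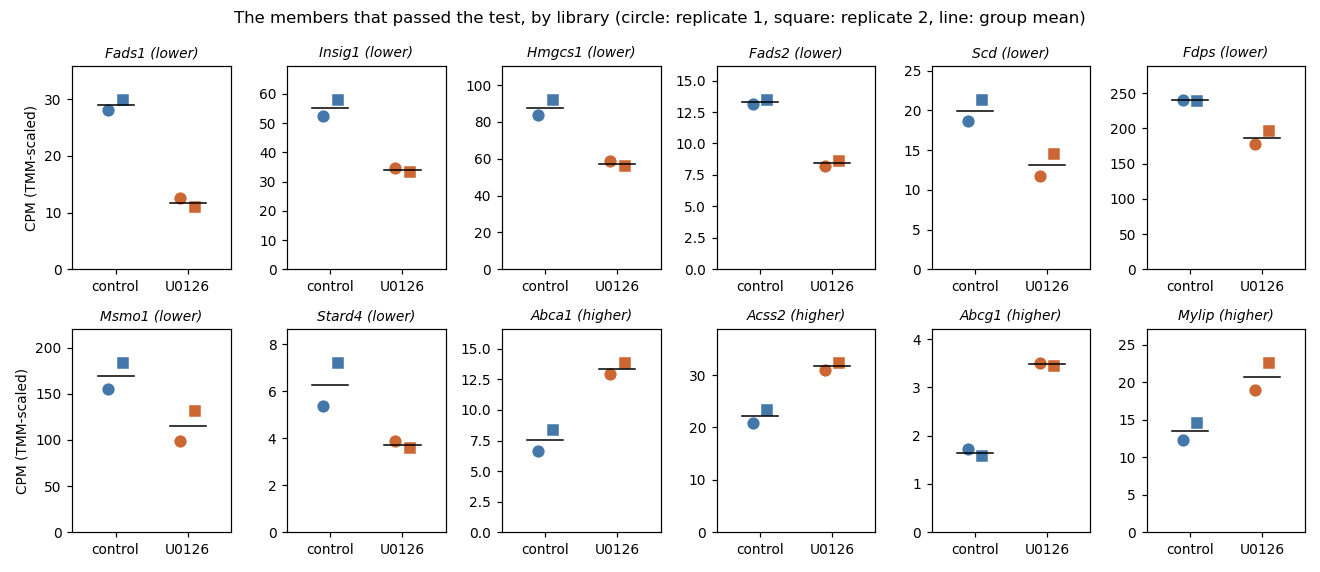
CPM after TMM scaling in each library for the 12 members that passed, with circles for replicate 1, squares for replicate 2 and a line at the group mean. Both U0126 libraries lie below both controls in the 8 members that fell and above both in the 4 that rose.

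Further genes of sterol and lipid handling were taken from lists outside the 36 members. Of all genes tested, 8.41% rose and 11.5% fell. Of 15 tested genes of SREBP processing and sterol sensing, 1 fell (6.67%) and 0 rose, with a median log2 fold change of 0.14. The gene that fell was Tmem97, a sterol-regulated membrane protein, from 61.8 ± 5.12 to 45.8 ± 0.09 CPM (edgeR adjusted p = 0.0240). Of 19 tested genes of sterol uptake, traffic and storage, 3 rose (Npc2, Lrp1 and Vldlr) and 3 fell (Ch25h, Soat1 and Scarb1). Rises and falls were each 15.8% of this list. Npc2, which moves cholesterol out of lysosomes, rose 1.42-fold. The lipoprotein receptors Lrp1 and Vldlr rose 1.36-fold and 1.26-fold. Ch25h, which makes 25-hydroxycholesterol, fell 3.53-fold from 4.50 ± 1.06 to 1.27 ± 0.27 CPM (edgeR adjusted p = 0.00603). Soat1, the enzyme that esterifies cholesterol for storage, fell 1.49-fold, and Scarb1, a receptor for high-density lipoprotein, 1.52-fold. By edgeR, Tmem97, Npc2, Lrp1, Vldlr, Soat1 and Scarb1 lost their calls without control replicate 1 or 2, and Ch25h without control replicate 1 (adjusted p = 0.0740). Vldlr also did not pass with library totals alone, with no low-count filter or with replicate number as a block.

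Of all genes tested, 19.9% passed edgeR's test, and of 14 isoprenoid branch genes 0 did. These 14 use farnesyl diphosphate for dolichol, ubiquinone and protein prenylation. The most abundant of them by count, Nus1, a subunit of the dolichol-making prenyltransferase, was at 89.7 ± 2.57 and 104 ± 4.50 CPM (edgeR adjusted p = 0.134). Of 28 tested genes among 34 further fatty acid and glycerolipid genes, 6 rose (21.4%, against 8.41% of all genes tested). In the same list 4 fell (14.3%, against 11.5%), and the median log2 fold change of the 28 was 0.03. Me1, malic enzyme, a source of NADPH, rose 1.41-fold, and the acyl-CoA synthetases Acsl3 and Acsl5 rose 1.56-fold and 1.27-fold. Acsl4, the acyl-CoA synthetase that favours arachidonate, fell 2.21-fold from 54.5 ± 2.07 to 24.7 ± 1.48 CPM (edgeR adjusted p = 5.79e-04), and passed in each of its 10 alternatives. Hacd1, a dehydratase of fatty acid elongation, fell 1.44-fold, and Aacs, acetoacetyl-CoA synthetase, 1.51-fold. Without control replicate 1 or 2, Me1, Acsl3, Acsl5, Hacd1 and Aacs did not pass, and Acsl5 also missed with library totals alone and with replicate number as a block.

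Other lists moved in the same libraries. All 13 proliferation genes fell (median log2 fold change -2.73), where 11.5% of all genes tested fell. Their summed level was 593 to 608 CPM in the controls and 118 to 152 CPM with U0126. The part of this difference in the members' falls was not tested. Of 8 adipocyte markers, Lep was at 0 counts in all 4 libraries and Adipoq, Plin1, Cidec and Fabp4 at 0 to 12 counts, and 3 were tested. The summed adipocyte level overlapped between groups, at 20.3 to 21.1 CPM in the controls and 20.2 to 28.8 CPM with U0126. It was mostly Lpl and Pparg, which did not pass, while the low adipocyte marker Cfd rose, with 6 counts in each control and 34 and 20 with U0126 (edgeR adjusted p = 0.0336). Macrophage markers, 6 of 7 of them found, summed to 15.4 to 15.8 CPM in the controls and 11.2 to 12.5 CPM with U0126, with Ptprc at 0. Schwann cell markers summed to 8.18 to 13.3 and 26.3 to 44.3 CPM, nearly all from S100b, with Sox10 at 0. Skeletal muscle markers summed to 9.60 to 12.4 and 3.37 to 3.65 CPM, with Pax7 at 0, and pericyte markers to 501 to 584 and 334 to 441 CPM. The pericyte sum was mostly Cspg4, which did not pass, while Mcam fell 2.43-fold and Abcc9 rose 4.24-fold. Epithelial markers summed to 2.62 to 2.83 and 3.74 to 3.84 CPM, with Krt14 at 0. The part of these markers in the members' differences was not tested.

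**Figure D4:**
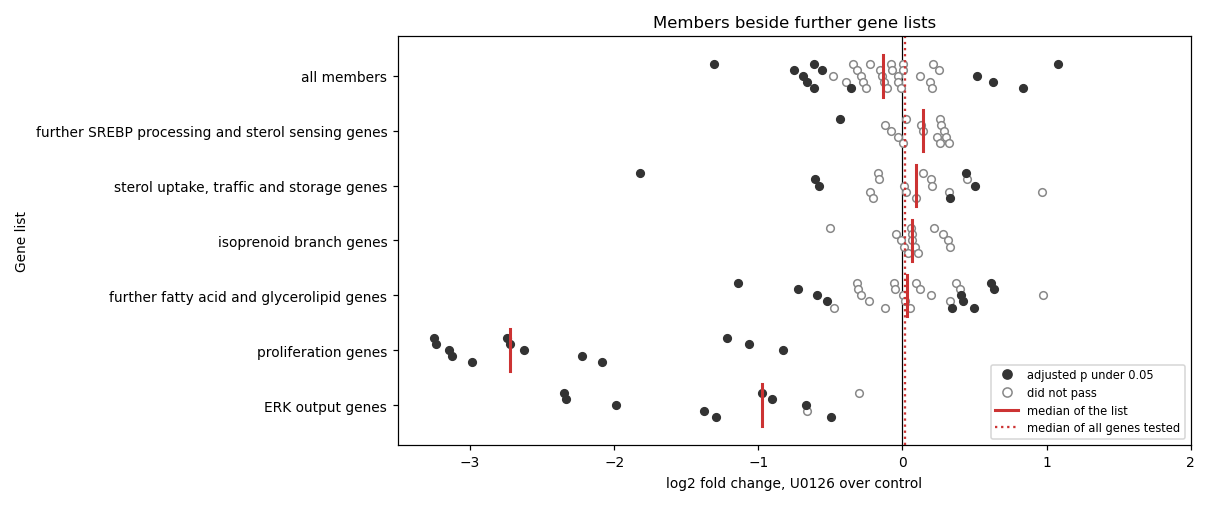
Log2 fold change of U0126 over control (horizontal axis) for the members and for further gene lists (rows), with filled points for an adjusted p under 0.05, a red bar at each list's median and a dotted line at the median of all genes tested. The members spread from -1.31 to 1.08 around a median of -0.14, and the proliferation genes lie far lower, at a median of -2.73.

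**Figure D5:**
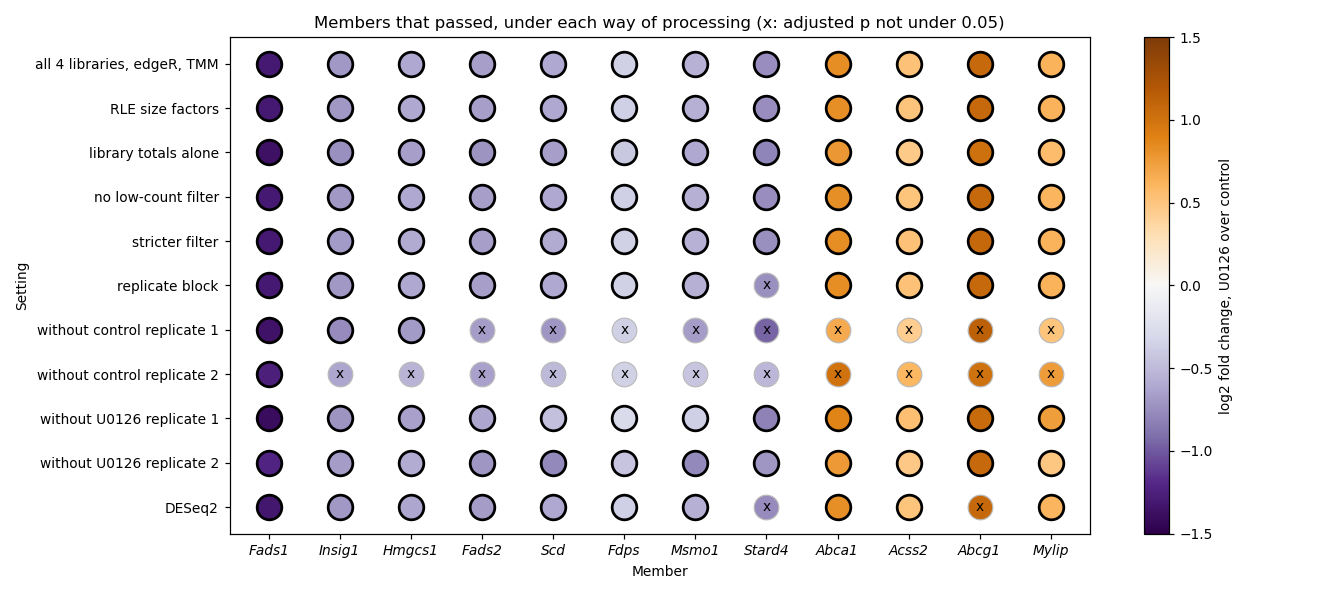
The 12 members that passed (columns) under each way of processing (rows), coloured by log2 fold change of U0126 over control, with an x where the adjusted p was not under 0.05. Fads1 passed in each of the 11 rows, and most losses fall in the 2 rows that leave out a control library.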

How the data were processed

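RNA of 4 rat TSPC libraries was sequenced after extraction with Trizol and an Illumina library protocol, per the labels' protocols. The genome build is rn6, per the submitters' processing notes, and for the aligner, counter, strand setting and annotation the entry is: not given in the sources used here. The authors deposited whole-number counts per gene, not normalized, per the file headers. The deposited TPM values, scaled by the authors for gene length and library, served for levels between genes. The deposited FPKM values were not used. Each column header was tied to a sample through the letter and replicate number it shares with that sample's labels, and 0 were left unmatched.

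Genes passing edgeR's filterByExpr (minimum count 10, minimum total 15) were scaled by TMM and tested two-sided by glmQLFit and glmQLFTest, at a Benjamini-Hochberg adjusted p under 0.05 (R 4.3.3, edgeR 4.0.16, limma 3.58.1, DESeq2 1.42.0). Log2 fold changes carry a prior count of 0.125, and SE was taken as the size of the log2 fold change over the root of F. Intervals are at 95% and cover these libraries only. The fit was tested on simulated counts. Alternatives were RLE factors, library totals alone, no low-count filter, a stricter filter (at least 1 CPM in at least 2 libraries), DESeq2, a replicate block and leaving out each library. With a library left out, the remaining one of its group is assumed to vary like the other group. The members and lists were chosen with earlier results of these data known. Every member is reported, and of each further list up to 3 risers and 3 fallers with the smallest adjusted p are named, or the most abundant gene where 0 passed. Promoter sequences are from RefSeq, build GRCr8.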

Additional observations from a re-analysis of the deposited data

How the results depend on the processing

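All members had 67 or more counts in every library, and the SE of the log2 fold change was largest in low members, at 0.27 for Elovl6, 0.24 for Abcg1 and 0.21 for Stard4, the last 2 of which did not pass under DESeq2. The 12 called members kept their sign in all 10 alternatives, and 10 of them kept their call in each alternative that used all 4 libraries. Leaving out 1 library at a time gave 899 to 4644 genes called by edgeR, against 2792, with 1 to 14 members lower, against 8, and 0 to 6 higher, against 4. The cause of these shifts was not tested. Replicate numbers are shared between groups, but nothing in the labels pairs the samples, and same-numbered libraries deviated from their group means with a correlation of -0.05 across genes. With the replicate block, 2371 genes passed, 7 members fell and 4 rose, with Stard4 lost. Of the uncalled members, 9 passed in at least 1 alternative and 6 changed sign in at least 1, at small values and with none of them passing there. Nsdhl (log2 fold change below 0.01) was at -0.0052 with RLE factors, -0.0054 with no low-count filter, -0.0087 under DESeq2 and -0.0530 with library totals alone. Insig2 was at -0.0036, -0.0038, -0.0070 and -0.0518 under the same 4 settings. With 1 library left out, log2 fold changes ran from -0.0430 to 0.0430 for Nsdhl, -0.0772 to 0.0823 for Insig2, -0.1643 to 0.0179 for Mvk, -0.2862 to 0.0421 for Mvd, -0.1966 to 0.1442 for Fasn and -0.0923 to 0.0311 for Elovl5.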

Other observations

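Within each library, ratios of deposited TPM values between related genes (Scd2 is not a member) were taken after the differences above had been seen, and are given as descriptions. The ratio of Srebf2 to Srebf1 was 1.39 and 1.41 in the controls and 0.891 and 1.08 with U0126. Insig1 stood at 1.57 and 1.93 times Insig2 in the controls and at 1.13 and 1.02 times with U0126. The ratio of Fads1 to Fads2 was 0.848 and 0.880 in the controls and 0.604 and 0.504 with U0126. Scd2 exceeded Scd 14.1 and 13.6 times in the controls and 29.6 and 27.3 times with U0126. The groups did not overlap in any of these 4 ratios, which compare genes within a library and do not show which of the genes in a pair changed.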
